A study of Mus musculus with 12 samples.

Results

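The comparison of 18 with 2 months sets the subventricular zone of an aged mouse against that of a young adult, without the oldest libraries of the series. It rests on 6 of the 12 libraries, 3 at 2 months and 3 at 18 months, taken by age from the labels, and it was read across all genes. Every library held RNA of male wild-type mice, whose subventricular zones had been dissected and taken apart into single cells before Trizol extraction. The strain C57BL/6 is named for the 2-month samples and not for the others. The labels do not say whether the 3 libraries of an age came from 3 animals or from pools, so a p-value here speaks of the spread among these particular libraries, and that spread may be technical. The 3 libraries of 6 months entered the fit to help estimate that spread, and those of 22 months did not. The values of both ages are given where they show the course of a gene.

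The subventricular zone lines the lateral ventricle and is one of the places where new neurons arise in the adult rodent brain. Quiescent stem cells, which resemble astrocytes, become activated, give rise to rapidly dividing transit-amplifying progenitors, and these to neuroblasts that migrate to the olfactory bulb. Ependymal cells with motile cilia, microglia, oligodendrocytes and their precursors, vessels and neighbouring striatal tissue surround them. Output of new neurons is known to decline with age in this tissue, while glial and immune genes are known to become more active in aged brain. In RNA of a whole tissue, fewer cells of a type and less RNA per cell cannot be told apart.

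A value is a normalised count, that is, reads per gene after scaling each library by its size factor. Values of single libraries are given in the order of replicates 1, 2 and 3. Differences are log2 fold changes of the normalised count plus 1, 18 minus 2 months, with their standard errors (n = 3 against 3) and a p-value adjusted over all 15504 genes tested. Gene bounds are those of RefSeq on GRCm38.p6. The 2-month libraries held 7732316 to 10112100 reads and the 18-month libraries 10842864 to 12991067, and a count of 0 allowed up to 3.57 and 2.55 normalised counts respectively. Across genes, which are not independent replicates, log2 values correlated at 0.989 to 0.991 within 2 months, 0.989 to 0.992 within 18 months and 0.983 to 0.986 between them. None of the 6 libraries stood apart from its group in these correlations. In particular gene groups 18 months replicate 1 did: it had the highest summed interferon-stimulated counts and the lowest summed immediate early counts of its age, and both are given with those groups.

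At 18 months, 1197 genes (7.72% of those tested) differed from 2 months at an adjusted p under 0.05 (limma). Of these, 623 were higher (4.02%) and 574 were lower (3.7%). The changes were mostly small: 758 of the 1197 were under 1.5-fold and the median size was 0.45 on the log2 scale, while 101 genes were at least 2-fold higher (0.651%) and 77 at least 2-fold lower (0.497%). The libraries of the 2 ages did not overlap in 1192 of the 1197, and in 27.6% of all genes tested. Where libraries of a called gene are said below to lie apart, this describes its values and adds no support to the call. Genes named for the size of their change were also chosen for it. With all values scaled to the upper quartile of each library, 1079 were higher and 326 lower, so the balance of the directions depends on the scaling, which moved the median of all genes from 0.00 to 0.06. Without 2 months replicates 1, 2 or 3 in turn 606, 624 and 769 genes passed, and without 18 months replicates 1 or 3 the numbers were 777 and 607. Of the 1197 genes, 400 passed in each of the 9 fits that left out 1 library.

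**Figure D1:**
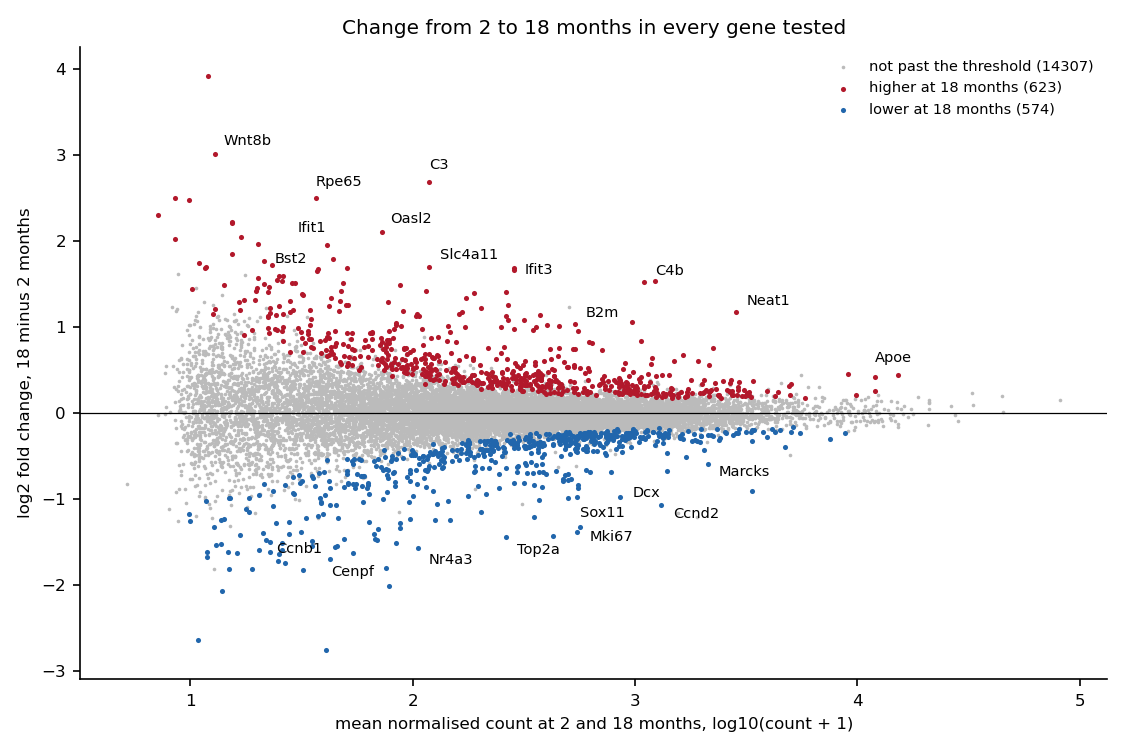
Each point is a gene tested, placed by its mean normalised count at 2 and 18 months (log10 of the count plus 1) and its log2 fold change, 18 minus 2 months. Red points are the 623 genes higher and blue points the 574 lower at an adjusted p under 0.05; among the labelled genes C3 stands at 2.69 and C4b at 1.53, and the genes of dividing cells Cenpf, Top2a and Mki67 stand at -1.80, -1.44 and -1.39.

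Genes of mitosis fell as a group. Of 36 genes of mitosis and chromosome segregation, all of them tested, 28 fell and 1 rose, with a median of -0.94, beside 3.7% lower and a median of 0.00 over all genes. Their counts summed to between 4800 and 5156 in the 2-month libraries and to between 3138 and 3330 at 18 months, with 3525 to 4166 at 6 months. The sums of 2 and 18 months did not overlap.

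Top2a (chromosome 11, 98992947 to 99024199), the topoisomerase that untangles sister DNA molecules, had 392, 414 and 346 normalised counts at 2 months and 151, 145 and 126 at 18 months. Every 18-month library lay under every 2-month library by a wide margin, and the 3 libraries of 6 months (192, 251 and 214) lay in between. Top2a fell by 1.44 ± 0.11 on the log2 scale (adjusted p = 6.42e-06). Mki67 (chromosome 7, 135689784 to 135716450), which coats chromosomes and marks cells in cycle, had 768, 835 and 776 against 323, 248 and 346. It fell by 1.39 ± 0.19 (adjusted p = 0.000616), and its groups were again apart, although the 6-month libraries were unequal at 306, 598 and 546. Cenpf (chromosome 1, 189640606 to 189688107), a protein of the kinetochore that links chromosomes to the spindle, had 99.8, 126 and 123 against 39.1, 35.7 and 24.4 and fell by 1.80 ± 0.21 (adjusted p = 0.000264). Cyclin B1 (Ccnb1, chromosome 13, 100778739 to 100786486), the partner of Cdk1 at entry into mitosis, had 60.6, 62.4 and 73.3 against 19.6, 21.1 and 24.4 and fell by 1.55 ± 0.19 (adjusted p = 0.00028). In all 4 genes the lowest library of 2 months was above the highest of 18 months. The libraries of the 2 ages were likewise apart in 1192 of all 1197 genes called.

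Other genes of dividing cells fell to a similar degree. The spindle pole protein Aspm went from a mean of 80.5 ± 10.8 to 25.7 ± 5.74 (SD, n = 3) and fell by 1.62 ± 0.22. The mitotic kinase Pbk fell by 1.55 ± 0.19, Ect2, which starts cytokinesis, by 1.49 ± 0.27, and Hmmr, a spindle assembly factor, fell by 1.46 ± 0.30. The condensin subunit Smc4 fell less, by 0.96 ± 0.12, from 200, 267 and 232 to 123, 117 and 114. A gene listed as 2810417H13Rik, the PCNA-associated factor Pclaf in RefSeq, was named after its values were seen. It had 127, 115 and 130 against 35.7, 34.0 and 22.2 and fell by 2.01 ± 0.23 (adjusted p = 0.000155). The 1 member of the list that went the other way, also named after its values were seen, was Anln, a scaffold of the contractile ring that myelinating oligodendrocytes also express, at 795, 766 and 592 against 862, 1222 and 1165 (0.59 ± 0.13, adjusted p = 0.014). It passed in 6 of the 9 fits that left out 1 library, and its adjusted p was 0.0579 without 18 months replicate 3.

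Promoters of mitotic genes are known for a pair of short elements, CCAAT boxes and the cell cycle genes homology region, whose core is TTTGAA. The promoters of 3 of the genes that fell are shown, from 250 bases before to 50 bases after the start, as RefSeq gives them for GRCm38.p6. The table holds 1 start per gene, which for Cenpf, Aspm and Top2a, and for Ifit3 further on, lies inside the outer gene bounds. It need not be the start in use here. Capitals mark CCAAT and TTTGAA on either strand (ATTGG and TTCAAA where they lie on the other one). The windows are chr1:189688037-189688336, minus strand for Cenpf, chr1:139454523-139454822, plus strand for Aspm and chr11:99024140-99024439, minus strand for Top2a.
Cenpf: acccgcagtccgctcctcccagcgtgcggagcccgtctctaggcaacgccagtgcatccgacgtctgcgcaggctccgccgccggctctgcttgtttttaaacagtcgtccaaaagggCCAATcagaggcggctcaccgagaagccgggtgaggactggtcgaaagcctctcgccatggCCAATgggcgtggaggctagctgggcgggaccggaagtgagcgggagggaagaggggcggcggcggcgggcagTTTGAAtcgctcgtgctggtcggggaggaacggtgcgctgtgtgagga
Aspm: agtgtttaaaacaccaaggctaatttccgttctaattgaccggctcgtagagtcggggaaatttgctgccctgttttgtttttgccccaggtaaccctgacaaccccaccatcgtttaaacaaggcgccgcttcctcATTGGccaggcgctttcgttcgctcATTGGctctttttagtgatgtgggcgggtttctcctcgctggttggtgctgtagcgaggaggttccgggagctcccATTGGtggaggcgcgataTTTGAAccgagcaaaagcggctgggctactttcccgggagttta
Top2a: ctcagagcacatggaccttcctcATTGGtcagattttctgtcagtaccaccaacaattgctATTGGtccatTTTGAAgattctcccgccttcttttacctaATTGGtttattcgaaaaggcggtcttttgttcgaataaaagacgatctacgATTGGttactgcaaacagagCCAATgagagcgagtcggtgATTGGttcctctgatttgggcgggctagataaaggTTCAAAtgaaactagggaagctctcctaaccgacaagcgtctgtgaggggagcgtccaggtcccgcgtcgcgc
The last letter of CCAAT can be the first of TTTGAA, and a window was counted once however many matches it held. Both were found in the windows of 24 of the 31 mitotic genes with a promoter in the table (77.4%), against 6.03% of all 12148 tested genes with one. TTTGAA alone was in 25 of the 31 (80.6%, against 14.5%) and CCAAT in 27 (87.1%, against 42.8%). Among all genes lower at 18 months that had a promoter, 54 of 438 held both (12.3%), and among those higher 6.9%. The 54 include 18 of the 23 listed mitotic genes that fell and had a promoter (78.3%), so the 12.3% counts these genes again. The 3 windows shown were chosen for holding both. Those of Ccnb1 and Rrm2, which also fell, held CCAAT and no TTTGAA, which says only that these letters are not in them. A match of letters is a description of the window and not a binding site.

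Genes of DNA replication fell in part. Of 31 genes of S phase 10 fell and none rose, with a median of -0.50, beside 3.7% lower over all genes. The ribonucleotide reductase subunit Rrm2, which makes deoxynucleotides, had 131, 138 and 99.1 at 2 months and 37.4, 53.5 and 37.3 at 18 months, a fall of 1.51 ± 0.20 (adjusted p = 0.000507). Uhrf1, which maintains DNA methylation at the fork, had 126, 140 and 107 against 53.6, 49.4 and 43.1 and fell by 1.33 ± 0.15 (adjusted p = 0.000149). Both genes had groups that were well apart. The helicase subunit Mcm6 fell by 0.66 ± 0.12 and the large reductase subunit Rrm1 by 0.45 ± 0.07, so members of one enzyme moved by unequal amounts. Without 2 months replicate 1 the number that fell was 6. The histone chaperone Nasp, which is in no list, had 358, 368 and 364 against 223, 202 and 195, a fall of 0.81 ± 0.08 (adjusted p = 5.26e-05).

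Of the 6 D cyclins and G1 kinases 3 fell, beside 3.7% lower over all genes, and the size of the change differed between them. Cyclin D2 (Ccnd2, chromosome 6, 127125162 to 127152188), the D cyclin of adult neural progenitors, had 1800, 1785 and 1708 normalised counts at 2 months, 1122, 1461 and 1319 at 6 months and 818, 900 and 807 at 18 months. Its 9 libraries fell into 3 ranges by age that did not overlap, with a fall of 1.07 ± 0.08 from 2 to 18 months (adjusted p = 6.42e-06). Cdk4, the kinase that D cyclins activate, fell by 0.28 ± 0.07 and Cdk2 by 0.67 ± 0.18, and each passed in fewer than 5 of the 9 fits that left out 1 library (adjusted p up to 0.12 for Cdk4, without 18 months replicate 3, and 0.138 for Cdk2, without 2 months replicate 1). Ccnd2 was the 1 member to pass when replicate 1 of 2 months, replicate 3 of 6 months, or replicate 1 or 3 of 18 months was left out.

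Markers of senescence did not go one way. Among 12 cell cycle inhibitors and senescence genes 3 of the 10 tested fell and none rose, beside 3.7% lower over all genes. Their median was -0.02, which turned positive with upper quartile scaling. Lmnb1, the nuclear lamin whose loss is used as a sign of senescence, had 269, 242 and 244 against 138, 147 and 132 and fell by 0.85 ± 0.09 (adjusted p = 9.21e-05). Cdkn1b, the inhibitor p27, had 638, 718 and 709 against 490, 534 and 496 and fell by 0.44 ± 0.07 (adjusted p = 0.00271). Cdkn2a, the gene of p16 and p19, had at most 1.08 normalised counts at 2 months and 0.851 to 2.87 at 18 months. It was under the filter on low values, as was Cdkn2b, and too few reads fell on it for any change between the ages to be detectable.

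Progenitor genes, those of activated stem cells and of transit-amplifying cells, fell for the most part. Of 16 tested, 10 fell and 1 rose, with a median of -0.56, beside 3.7% lower and 4.02% higher over all genes. Dlx2, a homeobox factor of interneuron progenitors, had 226, 172 and 177 normalised counts at 2 months and 99.5, 110 and 73.2 at 18 months. Its groups were apart, with a fall of 1.03 ± 0.17 (adjusted p = 0.00219), and its relative Dlx1 fell by 0.83 ± 0.11. Dlx1as, the antisense transcript that overlaps Dlx1, had 463, 436 and 443 against 268, 247 and 238 and fell by 0.83 ± 0.08. Without stated strand use in the counting, reads of Dlx1 and its antisense partner cannot be told apart. Tnc, a matrix glycoprotein of the stem cell niche, fell by 1.27 ± 0.18, from 86.8, 74.3 and 106 to 37.4, 31.6 and 39.5, and Sox4 by 0.81 ± 0.13. Egfr, the receptor that marks activated cells, did not pass, at 208, 222 and 177 against 197, 154 and 183 (-0.18 ± 0.12, adjusted p = 0.415). Its libraries of the 2 ages overlapped. The member that rose, named after its values were seen, was Olig2, a factor of progenitors and of the oligodendrocyte lineage (0.33 ± 0.09, adjusted p = 0.0432), which passed in 3 of the 9 fits that left out 1 library (up to 0.164, without 18 months replicate 3).

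Among 27 tested markers of neuroblasts and young neurons 12 fell and none rose (median -0.24), beside 3.7% lower over all genes. Their summed count was between 49943 and 52069 at 2 months and between 46500 and 47310 at 18 months. It was between 48687 and 49606 at 6 months. At 22 months, outside the fit, it was between 49132 and 50767, which overlaps the range of 2 months. The most abundant members carry most of such a sum, so it need not follow the others. Doublecortin (Dcx, chromosome X, 143855842 to 143933396), which stabilises microtubules in migrating neuroblasts, had 1190, 1079 and 1138 at 2 months and 629, 509 and 603 at 18 months, a fall of 0.97 ± 0.12 (adjusted p = 0.000347). At 22 months Dcx had 639, 463 and 533, under every 2-month library. Sox11 (chromosome 12, 27334268 to 27342718), a transcription factor of young neurons, had 645, 634 and 703 against 333, 364 and 304 and fell by 0.98 ± 0.10 (adjusted p = 6.17e-05). In both genes every 18-month library lay well under every 2-month library. Nrep, a small protein of growing neurons, fell by 0.68 ± 0.07 and Dpysl3, a growth cone protein, by 0.87 ± 0.10. Outside the list, Rnd3, a GTPase that guides neuronal migration, had 453, 479 and 544 against 216, 216 and 202, a fall of 1.21 ± 0.09 (adjusted p = 5.92e-06). Marcks, an actin-binding substrate of protein kinase C, fell from 2483, 2470 and 2683 to 1792, 1699 and 1595, by 0.59 ± 0.06 (adjusted p = 4.57e-05).

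**Figure D2:**
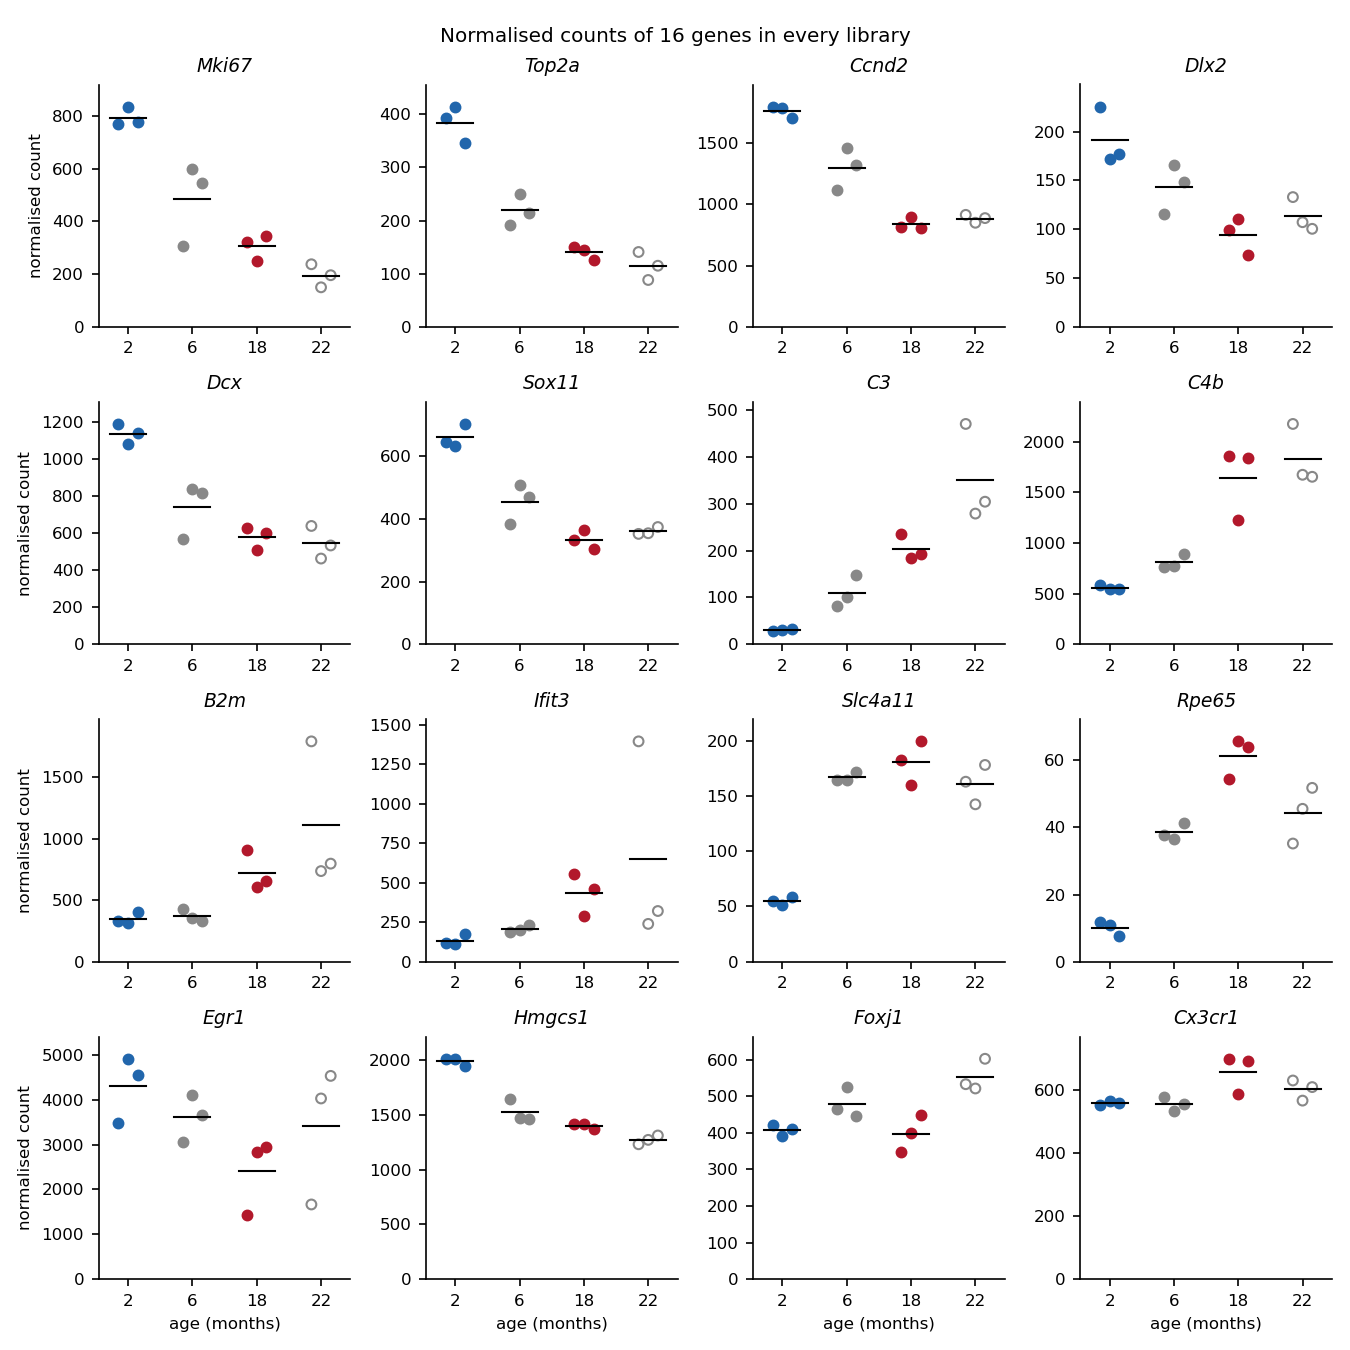
Normalised counts (vertical axes, from 0) of 16 genes in every library by age in months, with the mean of each age as a bar; blue is 2 months, red 18 months, grey 6 months, and open circles are 22 months, outside the fit. The 18-month libraries of Top2a lie between 126 and 151 and those of 2 months between 346 and 414, while Foxj1 and Cx3cr1 did not pass the test.

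Quiescent stem cells and astrocytes share most of their markers, and these went both ways. Of 24, 5 rose and 4 fell, with a median of 0.04, beside 4.02% higher and 3.7% lower over all genes. S100b, a calcium-binding protein of mature astrocytes, had 960, 941 and 869 against 1168, 1702 and 1514 and rose by 0.65 ± 0.11 (adjusted p = 0.00387). Apoe, the main lipid carrier of astrocytes and microglia, had 10552, 10392 and 9928 against 13808, 13668 and 13853 and rose by 0.42 ± 0.06 (adjusted p = 0.000718). The metallothionein Mt1 rose by 0.45 ± 0.06. Thbs4, a secreted thrombospondin made by astrocytes of this zone, went the other way, at 384, 480 and 426 against 260, 244 and 287 (a fall of 0.70 ± 0.09, adjusted p = 0.00044). The water channel Aqp4 fell by 0.28 ± 0.07, from 1303, 1164 and 1092 to 1010, 919 and 990 (adjusted p = 0.0267), a call that was lost in 4 of the 9 fits that left out 1 library (up to 0.12, without 2 months replicate 1). The count that rose was 3 without 2 months replicate 2, and the count that fell was 2 when replicate 1 or 2 of 2 months, or replicate 3 of 18 months, was left out.

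Of 17 tested genes of reactive astrocytes 4 rose and 1 fell (median 0.12), beside 4.02% higher and 3.7% lower over all genes. Serpina3n, a secreted protease inhibitor, had 60.6, 64.2 and 38.8 against 114, 93.2 and 128 and rose by 1.04 ± 0.21 (adjusted p = 0.00873). Gfap, the filament protein, had 1861, 1855 and 1464 against 2415, 2097 and 3241, a rise of 0.57 ± 0.13 (adjusted p = 0.0178). Its call was lost without 2 months replicate 3 (0.0686) and in 1 other of the 9 fits that left out 1 library. The member that fell, B3gnt5, an enzyme that extends glycolipid chains, went from 54.7, 63.3 and 71.1 to 19.6, 26.7 and 12.2, by 1.70 ± 0.25 (adjusted p = 0.000993). Without 2 months replicate 3 or without 18 months replicate 3 the number that rose was 2.

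None of 20 ependymal genes passed (median -0.18), although 16 lay below 0. Foxj1, the master factor of motile cilia, had 422, 391 and 410 against 348, 399 and 448. Myelin genes likewise gave 1 of 20 higher (median 0.15), beside 4.02% higher over all genes. Mbp, the myelin basic protein, had 45057, 44689 and 34790 against 39273, 51975 and 52590 (0.21 ± 0.13, adjusted p = 0.365), with overlapping ranges. The 1 member that passed was Nkx6-2, a transcription factor of myelinating cells (0.37 ± 0.10, adjusted p = 0.0377), in 4 of the 9 fits that left out 1 library (up to 0.124, without 18 months replicate 3). Without 18 months replicate 1 the number that rose was 4, and without 6 months replicate 1 it was 3.

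Precursors of oligodendrocytes gave a single strong change. Gpr17 (chromosome 18, 31942999 to 31949890), a receptor of precursors that have begun to differentiate, had 765, 742 and 663 at 2 months, 500, 496 and 492 at 6 months and 392, 360 and 348 at 18 months. The 3 ages did not overlap, and the fall from 2 to 18 months was 0.98 ± 0.07 (adjusted p = 5.92e-06). Pdgfra, the growth factor receptor of the precursors as a whole, had 643, 632 and 579 against 684, 532 and 609 (-0.03 ± 0.08, adjusted p = 0.876). Of the 15 markers of these cells 1 fell and 1 rose, with a median of -0.09, beside 3.7% lower and 4.02% higher over all genes. The member that rose was Matn4, a matrix protein (0.45 ± 0.12, adjusted p = 0.0364). It passed in 2 of the 9 fits that left out 1 library (up to 0.122 without 18 months replicate 1). A long non-coding RNA, 9630013A20Rik, was named after its values were seen. It had 78.4, 69.7 and 61.4 against 8.51, 10.5 and 9.33 normalised counts, a fall of 2.76 ± 0.21 (adjusted p = 6.42e-06).

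C3, both C4 genes and the chains of C1q rose. Complement tags cells and synapses for removal: C1q starts the classical cascade, C4 carries it on, and C3 is its central component. Of 15 tested, 6 rose and 1 fell, with a median of 0.45, beside 4.02% higher over all genes. C1s, a protease of the same cascade, stood at -0.20 ± 0.39 (adjusted p = 0.815), and C1ra and C2 were under the filter. C3 (chromosome 17, 57203967 to 57228136) had 28.5, 31.2 and 32.3 normalised counts at 2 months, 81.5, 102 and 148 at 6 months and 236, 184 and 194 at 18 months. The ages did not overlap, and the rise was 2.69 ± 0.18 (adjusted p = 4.33e-06). C4b (chromosome 17, 34728139 to 34743902) had 582, 540 and 549 at 2 months, 766, 776 and 895 at 6 months and 1862, 1223 and 1834 at 18 months, a rise of 1.53 ± 0.12 (adjusted p = 8.94e-06). C4a rose by 1.54 ± 0.12, but it is a near copy of C4b and the counting may have split their reads, so the pair is one observation. C1qa and, named after their values were seen, C1qb and C1qc, the chains of C1q, rose by 0.75 ± 0.08, 0.66 ± 0.08 and 0.61 ± 0.10. The member that fell, also named for that reason, was Cfp, properdin, which stabilises the alternative pathway (-0.36 ± 0.10, adjusted p = 0.038), a call kept in 2 of the 9 fits that left out 1 library (up to 0.117, without 2 months replicate 1).

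Of 21 tested genes of class I antigen presentation 10 rose and none fell, beside 4.02% higher over all genes, with a median of 0.60. Their summed counts were 6675 to 7294 at 2 months and 9853, 8032 and 8107 at 18 months, so 18 months replicate 1 stood above the other two. B2m (chromosome 2, 122147687 to 122153082), the light chain of every class I molecule, had 327, 315 and 400 at 2 months, 425, 354 and 332 at 6 months and 911, 606 and 653 at 18 months. The 6-month libraries overlapped those of 2 months and the 18-month libraries lay above both, with a rise of 1.04 ± 0.14 (adjusted p = 0.000511). H2-T23, a non-classical heavy chain, had 170, 154 and 161 against 450, 292 and 343 and rose by 1.14 ± 0.13 (adjusted p = 0.000149). H2-Q4 rose by 1.15 ± 0.17 and Psmb8, a subunit of the immunoproteasome, by 1.52 ± 0.25, from 10.7, 14.7 and 17.2 to 57.8, 33.2 and 38. The heavy chain genes resemble each other closely, so their reads may be shared and they are not separate observations. Class II genes gave no pass among 4 tested, and 1 without 6 months replicate 1, without 18 months replicate 3, with DESeq2 or with a replicate block. Their shared chain Cd74 had 9.51, 6.42 and 4.31 against 51.0, 17.0 and 11.5 (1.61 ± 0.51, adjusted p = 0.0696), and H2-Aa, H2-Ab1, H2-Eb1 and H2-Oa were under the filter.

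All 31 tested interferon-stimulated genes had fold changes above 0, with a median of 0.83 beside 0.00 over all genes. Of these, 14 rose, 17 did not pass and none fell, beside 4.02% higher over all genes. Interferons act through STAT and IRF factors to switch on this group, whose products hold back viruses. Ifit1 (chromosome 19, 34640889 to 34650009), which binds foreign RNA ends, had 11.9, 14.7 and 19.4 at 2 months, 17.3, 18.0 and 28.1 at 6 months and 88.5, 38.1 and 68.2 at 18 months, a rise of 1.96 ± 0.30 (adjusted p = 0.0014). Ifit3 (chromosome 19, 34583119 to 34588982), its partner, had 119, 110 and 174 against 558, 288 and 461 and rose by 1.67 ± 0.21 (adjusted p = 0.000318). Oasl2 (chromosome 5, 114896926 to 114912245), a relative of the oligoadenylate synthetases, had 27.3, 21.1 and 25.9 against 176, 67.3 and 111 and rose by 2.11 ± 0.33 (adjusted p = 0.00177). In these genes replicate 1 was the highest and replicate 2 the lowest library of 18 months, and all 18-month libraries stood above all of 2 months. Bst2 (chromosome 8, 71534255 to 71537472), a tether of budding viruses, had 14.3, 18.3 and 15.1 against 88.5, 36.5 and 43.1 and rose by 1.65 ± 0.31 (adjusted p = 0.00604). Xaf1, a pro-apoptotic partner of XIAP, was more even at 48.7, 55.9 and 58.2 against 120, 119 and 136 (1.19 ± 0.13, adjusted p = 0.000159). Ifi27l1, Ifi27 in RefSeq, rose by 1.00 ± 0.13. Ifit3 and I830012O16Rik, Ifit3b in RefSeq, had nearly equal counts in every library and are counted here as 1 observation.

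The spread of this group within 18 months was wide. Its members summed to 1982 to 2202 normalised counts at 2 months, 2035 to 2370 at 6 months and 2739 to 4362 at 18 months, the highest being 18 months replicate 1. Without that library 8 members rose, and without 18 months replicate 2, the lowest, 19 did. With all 12 libraries in the fit 7 rose, and with a filter of 50 normalised counts 7 rose. At 22 months, outside the fit, the sums were 2948 to 9958, with Ifit3 at 1396, 239 and 321.

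The promoters of 3 members are shown for the interferon-stimulated response element, whose core was searched on both strands as GAAA, any 2 bases and GAAA again, which reads TTTC, any 2 bases and TTTC where it lies on the other strand. They are RefSeq windows on GRCm38.p6, at chr19:34640639-34640938, plus strand for Ifit1, chr19:34583279-34583578, plus strand for Ifit3 and chr8:71537423-71537722, minus strand for Bst2. Capitals mark the matches, and a pair of them overlap in Bst2.
Ifit1: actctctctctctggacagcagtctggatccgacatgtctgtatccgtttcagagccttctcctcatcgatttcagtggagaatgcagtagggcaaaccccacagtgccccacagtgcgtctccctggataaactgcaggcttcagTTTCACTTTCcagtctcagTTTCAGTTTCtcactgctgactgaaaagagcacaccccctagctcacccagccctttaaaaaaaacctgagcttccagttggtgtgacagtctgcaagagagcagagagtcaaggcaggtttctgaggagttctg
Ifit3: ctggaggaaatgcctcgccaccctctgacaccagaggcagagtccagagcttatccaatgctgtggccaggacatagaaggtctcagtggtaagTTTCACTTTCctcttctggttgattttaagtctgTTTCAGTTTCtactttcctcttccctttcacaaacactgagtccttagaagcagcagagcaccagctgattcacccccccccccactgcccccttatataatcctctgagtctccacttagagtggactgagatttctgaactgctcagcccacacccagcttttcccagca
Bst2: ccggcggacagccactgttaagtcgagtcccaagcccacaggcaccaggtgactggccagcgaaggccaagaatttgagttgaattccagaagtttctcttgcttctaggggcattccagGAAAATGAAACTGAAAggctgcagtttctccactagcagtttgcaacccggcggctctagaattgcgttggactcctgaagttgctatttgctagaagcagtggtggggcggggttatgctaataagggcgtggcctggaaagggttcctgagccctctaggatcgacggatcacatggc
The core was in the windows of 14 of the 21 interferon-stimulated genes with a promoter in the table (66.7%) and of 5 of 18 class I genes (27.8%), against 3.63% of all tested genes. Among all genes higher at 18 months it was in 6.25%, and among those lower in 4.57%. It was in 7 of the 10 interferon-stimulated genes that rose and had a promoter, and these are counted again among the genes higher at 18 months. No match lay in the windows of Oasl2, Xaf1 and Psmb8, which says only that these letters are not in those 300 bases.

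**Figure D3:**
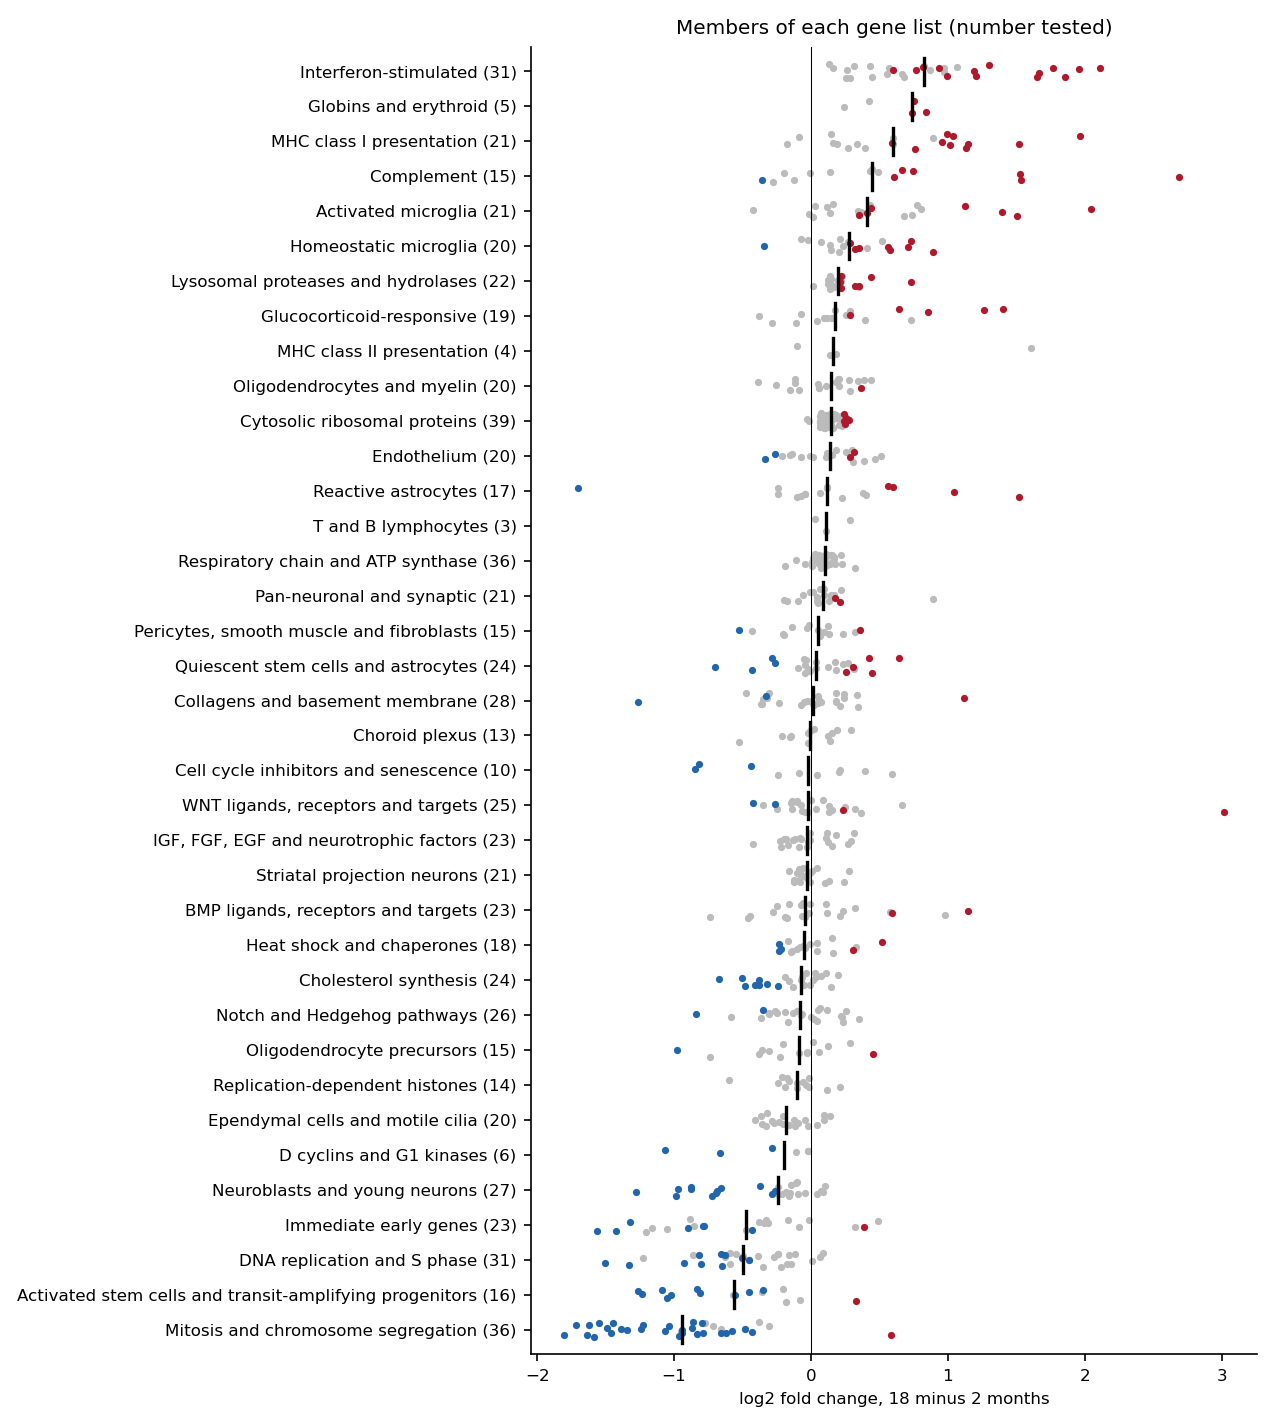
Each point is the log2 fold change, 18 minus 2 months, of a tested member of the list named at the left, with the number tested; a black bar marks the median, red and blue mark members higher and lower at an adjusted p under 0.05. Interferon-stimulated genes have the highest median (0.83) and genes of mitosis the lowest (-0.94).

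Microglia, the resident phagocytes of the brain, gave higher counts of several markers. Among 20 homeostatic markers 8 rose and 1 fell (median 0.28), and among 21 markers of activated microglia 7 rose and none fell (median 0.41). Beside these counts, 4.02% of all genes tested were higher and 3.7% lower. The summed counts of both lists were higher in every 18-month library than in any 2-month library, at 7722 to 8007 against 9332 to 10185 for the first and 9436 to 9680 against 11127 to 11480 for the second. Cx3cr1, the fractalkine receptor, had 554, 566 and 559 against 700, 587 and 692 (0.23 ± 0.07, adjusted p = 0.0657) and did not pass. The member that fell, Fcrls, had 247, 231 and 227 against 188, 189 and 180 (-0.34 ± 0.09, adjusted p = 0.0343), was named after its values were seen, and passed in 2 of the 9 fits that left out 1 library (up to 0.121, without 2 months replicate 1). Ctss, a lysosomal protease of microglia, had 540, 531 and 532 against 945, 814 and 909 and rose by 0.73 ± 0.08 (adjusted p = 0.000121). Trem2, the lipid-sensing receptor, had 103, 105 and 64.7 against 178, 145 and 177, a rise of 0.89 ± 0.16 (adjusted p = 0.00472). The integrin Itgax (chromosome 7), also called CD11c, had 7.13, 5.50 and 4.31 against 28.9, 27.6 and 22.2 and rose by 2.05 ± 0.31 (adjusted p = 0.00118). Lyz2, lysozyme, had 68.9, 57.8 and 71.1 against 151, 144 and 139, a rise of 1.13 ± 0.15 (adjusted p = 0.000507), with reads that may be shared with its neighbour Lyz1. The count of homeostatic markers that rose was 4 without 18 months replicate 1, and 5 when replicate 2 or 3 of 2 months, or replicate 3 of 18 months, was left out. Lag3, a receptor of lymphocytes and microglia that was named after its values were seen, rose by 1.30 ± 0.14, from 40.4, 47.7 and 43.1 to 125, 102 and 100.

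Of 22 lysosomal genes 7 rose and none fell (median 0.20), beside 4.02% higher over all genes. Among the 7 were Ctsd, a protease, which rose by 0.35 ± 0.07, and Ctsz, another, by 0.44 ± 0.08. Leaving out any 1 of 6 libraries, all of them but 6 months replicates 1 and 2 and 18 months replicate 2, left 4. Of 14 measured lymphocyte markers 11 were under the filter on low values, and none of the other 3 passed. Cd3e, a subunit of the T cell receptor, was at 0, 2.75 and 0 against 3.40, 0 and 0.718 normalised counts.

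Several genes among those with the smallest p-values or largest changes belong to none of the lists. Slc4a11 (chromosome 2, 130684107 to 130697519), a membrane transporter, had 54.7, 51.4 and 58.2 at 2 months, 164, 164 and 172 at 6 months and 183, 160 and 200 at 18 months. The 6-month libraries already stood at the level of 18 months, with a rise from 2 to 18 months of 1.70 ± 0.11 (adjusted p = 4.33e-06). Rpe65 (chromosome 3, 159599075 to 159625307), the isomerase of the visual cycle, had 11.9, 11 and 7.54 at 2 months, 37.7, 36.6 and 41.3 at 6 months and 54.4, 65.6 and 63.9 at 18 months, a rise of 2.50 ± 0.20 (adjusted p = 8.94e-06). Abca8a, a transporter of the ABC family, rose by 1.25 ± 0.10, from 146, 161 and 162 to 341, 360 and 426. Neat1, the long non-coding RNA of paraspeckles, had 1746, 1870 and 1603 against 3598, 3614 and 4688 and rose by 1.18 ± 0.10 (adjusted p = 2.01e-05). Agxt2l1, Etnppl in RefSeq and an astrocyte phospholyase, rose by 1.23 ± 0.11. Irak3, an inhibitor of Toll-like receptor signalling, had 17.8, 13.8 and 24.8 against 68.9, 55.1 and 75.4, a rise of 1.80 ± 0.26 (adjusted p = 0.000898).

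The signalling pathways of the niche gave 0 to 4 calls each, to be read beside the 7.72% of all genes that were called. Among 23 BMP genes 2 rose and none fell (median -0.04), among 25 WNT genes 2 rose and 2 fell (-0.02), among 26 Notch and Hedgehog genes 2 fell (-0.08), and among 23 IGF, FGF, EGF and neurotrophic genes none passed (-0.03). Bmp7 and Wnt8b passed in each of the 9 fits that left out 1 library, and the other calls in these lists did not. The BMP, WNT and growth factor medians turned positive with upper quartile scaling. Bmp7 (chromosome 2, 172868012 to 172940321), a ligand that favours glial fate and quiescence, had 73.7, 52.3 and 65.7 against 165, 130 and 132 and rose by 1.15 ± 0.14 (adjusted p = 0.00036). Its effector Smad9 rose by 0.59 ± 0.13 (adjusted p = 0.0146), which was lost in 2 of the 9 fits that left out 1 library (up to 0.0668, without 18 months replicate 3). Wnt8b (chromosome 19), a WNT ligand, was nearly absent at 2 months, at 0, 3.67 and 3.23 normalised counts, and had 21.3, 28.4 and 15.1 at 18 months, a rise of 3.02 ± 0.52 (adjusted p = 0.00312). Its fold change was 1.87 with a pseudocount of 5. The Hedgehog target Gli1 had 35.7, 32.1 and 31.3 against 22.1, 14.6 and 17.9 (a fall of 0.84 ± 0.22, adjusted p = 0.0322), and this call was kept in 4 of the 9 fits that left out 1 library (up to 0.105, without 2 months replicate 1).

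Genes of cholesterol synthesis fell in part, 8 of 24 with none higher (median -0.07), beside 3.7% lower over all genes. Idi1, an isomerase of the mevalonate pathway, had 545, 567 and 518 against 317, 345 and 360 and fell by 0.67 ± 0.07 (adjusted p = 0.000121). Hmgcs1, the HMG-CoA synthase, had 2013, 2008 and 1948 against 1421, 1416 and 1371 and fell by 0.50 ± 0.06 (adjusted p = 0.000149). Cyp51, which removes a methyl group from lanosterol, fell by 0.48 ± 0.07. Without 2 months replicate 2 the number that fell was 4, and without 18 months replicate 3 it was 5.

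Immediate early genes, which neurons and glia induce within minutes of stimulation or of handling, gave 7 lower and 1 higher of 23 (median -0.47). Over all genes tested 3.7% were lower and 4.02% higher. Nr4a3, an orphan nuclear receptor, had 140, 151 and 176 against 52.7, 36.5 and 71.8 and fell by 1.57 ± 0.20 (adjusted p = 0.00038). Fosl2, a Fos relative, had 444, 635 and 783 against 186, 211 and 290 and fell by 1.42 ± 0.20 (adjusted p = 0.000718). Egr2 fell by 1.32 ± 0.29 (adjusted p = 0.0137), lost in 2 of the 9 fits that left out 1 library (up to 0.0551, without 2 months replicate 3). The summed counts were 13371 to 21592 at 2 months and 6805 to 13499 at 18 months, and they overlapped, since 18 months replicate 3 stood just above 2 months replicate 1. Replicate 1 was the lowest library at each of the 4 ages. The sums of 22 months, outside the fit, were 7548, 20307 and 21722. Without 2 months replicate 2 or 2 months replicate 3 only 2 fell, and without 18 months replicate 1 the number was 4. The number that fell also moved by more than 1.5-fold with all 12 libraries, without the filter on low values and without the intensity trend. It did so too with upper quartile scaling, DESeq2 and a replicate block. Jund, the one that rose, had 713, 787 and 707 against 905, 980 and 1010 (0.39 ± 0.07, adjusted p = 0.00313). Among 18 heat shock genes 2 rose and 3 fell, beside 4.02% higher and 3.7% lower over all genes. None fell when replicate 1 or 2 of 2 months, or replicate 1 or 3 of 18 months, was left out. The cold-inducible RNA-binding protein Cirbp stood at 0.52 ± 0.07 (adjusted p = 0.000578). Of 19 glucocorticoid-responsive genes 5 rose, beside 4.02% higher over all genes. They were led by the lipid droplet protein Plin4, whose libraries were very unequal at 121, 130 and 139 against 208, 690 and 287 (1.41 ± 0.32, adjusted p = 0.0183). None of the 5 passed without 2 months replicate 1 or without 2 months replicate 2, 1 passed without 18 months replicate 2, and 2 passed without 18 months replicate 3.

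Markers of cells that a dissection could add or lose were compared for the same libraries. Haemoglobin genes rose in 3 of 5 erythroid members: Hba-a2 had 568, 1051 and 696 against 1454, 1112 and 1483 (0.84 ± 0.18, adjusted p = 0.0112, and 0.0541 without 2 months replicate 1), and the 2 other members that rose are the adult beta chains, Hbb-bs and Hbb-bt in RefSeq, whose reads may be shared. None of the 3 passed without 2 months replicate 1, and 1 passed without 18 months replicate 1 or without 18 months replicate 3. Of 21 striatal projection neuron markers none passed (median -0.03), and Drd1a, the dopamine D1 receptor, had 3003, 3155 and 3139 against 2756, 3306 and 2941. None of 13 choroid plexus genes passed. Ttr, the transthyretin that this epithelium secretes, had 1656, 942 and 1127 against 918, 1037 and 1185. Endothelial markers gave 2 higher and 2 lower of 20, mural and fibroblast markers 1 and 1 of 15, of which 1 endothelial call passed in each of the 9 fits that left out 1 library, and Cldn5, the tight junction protein of brain endothelium, had 191, 249 and 162 against 211, 164 and 161. Beside the erythroid, endothelial and mural counts, 4.02% of all genes tested were higher and 3.7% lower. The part of red cells in the results above was not tested.

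**Figure D4:**
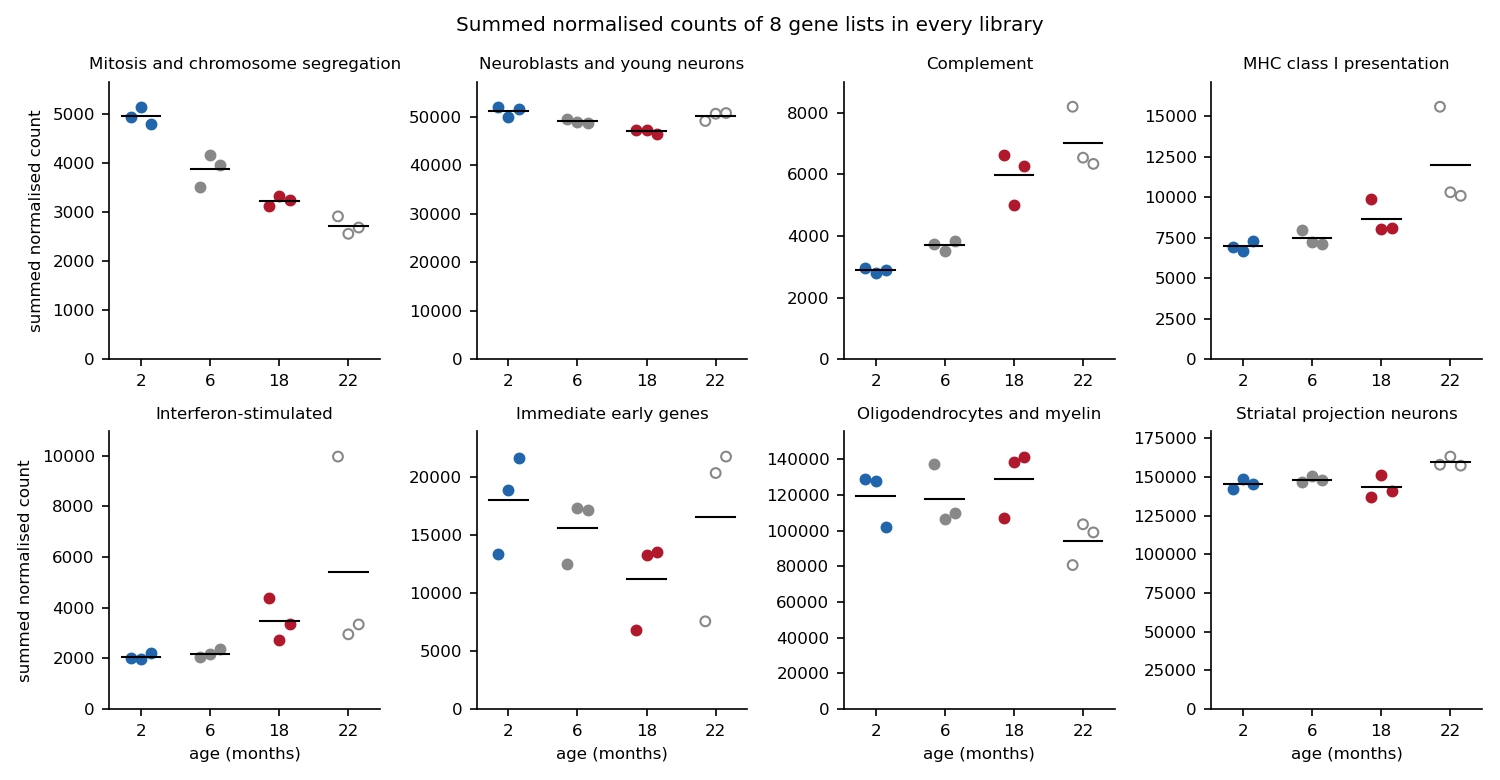
Summed normalised counts (vertical axes, from 0) of all members of 8 gene lists in every library by age in months, with the mean of each age as a bar; blue is 2 months, red 18 months, grey 6 months and open circles 22 months, outside the fit. Sums of mitosis fall from 4800 to 5156 at 2 months to 3138 to 3330 at 18 months, sums of complement rise from 2795 to 2957 to 5004 to 6607, and sums of striatal markers overlap.

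None of 36 genes of the respiratory chain passed (median 0.11), although 33 lay above 0. Without 6 months replicate 1 the number that rose was 3, and without 18 months replicate 1 it was 1. With upper quartile scaling 7 rose, and 1 did with all 12 libraries, with the 6 of the comparison or with DESeq2. None of 14 histone genes passed (median -0.10). Of 39 ribosomal protein genes 5 rose (median 0.15), led by Rpl37 at 0.25 ± 0.06 (adjusted p = 0.023). None of them passed when replicate 1 or 2 of either age was left out, while 11 passed without 6 months replicate 1. The number that rose also moved by more than 1.5-fold without the intensity trend, with upper quartile scaling or with the length and GC trend removed. Of 21 pan-neuronal genes 2 rose, Snap25, a synaptic fusion protein, by 0.21 ± 0.05 and Slc32a1, the vesicular GABA transporter, by 0.17 ± 0.05, and neither passed without 2 months replicate 1 or 2 months replicate 2. Of 28 collagen and basement membrane genes 1 rose, Col6a3, and 2 fell, Tnc and the brain proteoglycan Ncan, the last from 2119, 2117 and 2080 to 1775, 1626 and 1632 (-0.33 ± 0.05, adjusted p = 0.00252). None rose without 2 months replicate 2 or 18 months replicate 3, 2 rose without 18 months replicate 2, and 3 rose and 5 fell without 6 months replicate 1. The counts of the ribosomal, pan-neuronal and collagen lists stand beside 4.02% higher and 3.7% lower over all genes.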

How the data were processed

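RNA sequencing of subventricular zones gave 12 libraries, 3 at each of 4 ages. The deposited values are normalised counts, a signal that the authors made by dividing gene counts by size factors; DESeq2 and mm10 are named in the submitters' processing notes, while the aligner, annotation and use of strand are not given in the sources used here. Every value was a whole multiple of 1 read's worth (100% within 1e-06), from which the reads per library were recovered. The table held 23725 genes, 456 without a symbol and 27 whose symbols had turned into dates.

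Here log2 of the normalised count plus 1 was fitted with limma 3.58.1 in R 4.3.3, with an intensity trend and the 9 libraries of 2, 6 and 18 months. Genes reaching 10 normalised counts in 3 or more of the 9 were tested, and Benjamini-Hochberg adjusted p-values under 0.05 were called. edgeR 4.0.16 and DESeq2 1.42.0 on the recovered reads were alternatives, beside other scalings, pseudocounts, filters, sets of libraries and each library left out in turn. Scripts were tested on simulated data. Limits at 0 reads (3 reads) cover counting error only, since reads carry no molecular identifiers.

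The comparison, the gene lists and the genes shown were chosen with earlier results of these data known. Genes were named as the 12 called genes with the largest change in each direction (libraries apart, mean of at least 50 at the higher age, no clone or predicted names), the 8 with the smallest p in each direction, up to 4 called members of each list (or 2 where none was called), and 18 panel genes. Replicate numbers were not taken as pairs. A few genes that this rule names are not reported here.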

Additional observations from a re-analysis of the deposited data

How the results depend on the processing

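The number of genes called was 1197, of which 623 higher and 574 lower. It was between 951 (DESeq2) and 1210 (pseudocount 5) with 12 or 6 libraries, other pseudocounts, other filters, TMM factors, edgeR and DESeq2, apart from 909 with the trend on length and GC content removed. Without the intensity trend 719 passed, 386 higher and 333 lower. With upper quartile scaling 1079 were higher and 326 lower, so that 76.8% of the calls were higher, against 52.0%. Leaving out 1 library gave 606 to 1483 calls, 303 to 787 higher and 265 to 696 lower. With a replicate block 876 passed, 464 higher and 412 lower; same-numbered libraries of 2 and 18 months did not deviate together (r = 0.01, -0.08 and -0.19), so the numbers were not taken as pairs, although replicate 1 was the lowest in summed immediate early counts at each age. The cause of these shifts was not tested. Upper quartile scaling turned the direction of Drd1a (0.0053), Foxj1 (0.0156) and Pdgfra (0.0263), none of them called. Removing the length and GC trend turned Pdgfra (0.0087). Leaving out 1 library turned the sign of Cldn5 (range -0.30 to 0.0118), Drd1a (-0.12 to 0.0092), Foxj1 (-0.13 to 0.0534), Lck (-0.10 to 0.28), Pdgfra (-0.12 to 0.0637, with 0.00028 without 2 months replicate 1) and Ttr (-0.39 to 0.0147), also not called. Across genes, log2 fold changes correlated with GC content (rho = 0.241) and transcript length (rho = -0.204) over 14719 genes. Depth limits genes under about 10 normalised counts, which were not tested.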

Other observations

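Some families moved together whose members share sequence, so that each may be one observation; they were chosen after their values were seen. All 12 tested Fbxw genes of chromosome 9, F-box proteins encoded side by side, rose, by 1.31 to 1.73 on the log2 scale with a median of 1.49. Fbxw21 had 28.5, 22.9 and 18.3 normalised counts at 2 months and 74.0, 69.7 and 85.4 at 18 months. Of 22 tested gamma protocadherins, cell adhesion proteins that share their last exons, 10 rose and 1 fell, with a median of 0.29. Pcdhga8 had 462, 442 and 383 against 617, 605 and 675, while Pcdhgc5 fell from 964, 964 and 934 to 740, 690 and 761. The 3 tested Xlr3 genes of the X chromosome fell, by 1.41 to 1.48, with Xlr3b at 105, 89.0 and 99.1 against 17.0, 55.1 and 42.3 (adjusted p = 0.0131 by limma, and 0.0559 without 2 months replicate 1).

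Other single genes chosen after their values were seen were the alarmin Il33, which rose by 1.06 ± 0.10 from 639, 698 and 547 to 1163, 1327 and 1427 normalised counts, and the homeodomain protein Hopx, which rose by 1.01 ± 0.10 from 95.1, 90.8 and 99.1 to 187, 196 and 194. The chromatin protein Hmgb2, abundant in dividing cells, fell by 0.94 ± 0.10 from 259, 272 and 306 to 142, 160 and 134. Apod, a lipid carrier, rose by 0.76 ± 0.13, from 1677, 1703 and 1542 to 2218, 3369 and 2870.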
